A study of Mus musculus with 6 samples.

Results

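The genes described here are 10 mouse genes, classical targets of Notch signalling together with Hes6, a relative of Hes1 described below. They are the repressor genes Hes1, Hes5, Hes6, Hes7, Hey1, Hey2 and Heyl, the feedback genes Nrarp and Dtx1, and the T lineage gene Ptcra. They were chosen by gene symbol, among 18193 genes with at least 1 probe set assigned to a single symbol, and 16 probe sets carried one of the 10 names. Their log2 signals were compared between 3 arrays of cells grown with mD1R and 3 arrays of cells grown with PBS. All 6 samples were c-Kit+Sca-1+Lin- (KSL) cells from C57BL/6J mouse bone marrow, the gate that holds blood stem cells and early progenitors. For 7 days they had grown on a layer of HUVEC, which are human endothelial cells from the umbilical vein. The serum-free medium held a mixture of mouse cytokines called m5GF and either PBS, in the control group, or mD1R. Cells with the KSL phenotype were then sorted again for RNA. The labels do not spell out mD1R, which is known from outside them as a Notch ligand protein built from part of mouse Delta-like 1. The age of the mice and the number of animals behind each biological replicate are not given in the sources used here, and the feeder cells were of another species than the probes.

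Notch receptors are cut at the membrane when a ligand on a neighbouring cell, or an immobilised ligand, pulls on them, and the freed intracellular part joins the DNA-binding protein Rbpj and Mastermind to switch on target genes. Hes and Hey proteins are basic helix-loop-helix repressors, and several of their genes, not Hes6, are the textbook readout of this switch. In blood, Notch signals drive the first stem cells of the embryo and T cell commitment, and Hes1, Dtx1 and Ptcra are among the genes commonly followed there. The comparison asks whether this readout differed in cells that still had the KSL phenotype after a week with mD1R.

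None of the target genes passed the test for a difference between mD1R and PBS. With limma, 0 of the 6 member probe sets bright enough to be tested had a Benjamini-Hochberg adjusted p under 0.05, against 12.6% of 27022 probe sets tested on the same arrays. At an unadjusted p under 0.05 there was 1, a Hes6 probe set with lower signal under mD1R, where 29.8% of all tested probe sets were past that limit. Hes1 had almost the same signal in both groups, and its interval reached from 1.38-fold lower to 1.56-fold higher. Of the 6 probe sets, 3 were higher and 3 lower, and 2 of those 3 lower ones were of Hes6. The median log2 change over the 6 was -0.12, against 0.00465 over all tested probe sets. Over all 16 member probe sets in the fit without a filter, dim ones included, it was -0.44, against 0.02 over all 45037. The median size of the changes of the 6 tested member probe sets, whatever the sign, was 0.443, and that of all tested probe sets was 0.439. In bulk RNA, fewer cells of a type and less RNA per cell cannot be told apart.

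The other 10 member probe sets lay below the filter, a mean log2 signal of 5.27, which is the 40th percentile of all probe sets. They are called dim, and were fitted without a filter. None of the 10 passed in that limma fit, nor did any have an unadjusted p under 0.05, where 6.39% of 45037 probe sets passed and 7.82% of all dim ones had such a p. In all, 5 genes (Hes5, Hes7, Hey2, Heyl and Ptcra) had dim probe sets alone. Detection calls were not used here, so 78 probe sets of odour and pheromone receptor genes, a family not known in blood cells, served as a measure of empty signal. Their median log2 signal was 3.50 and their 95th percentile 5.36. All 6 tested member probe sets lay above that percentile by their mean over the 6 arrays, though the PBS mean of Hey1 (5.24) did not. The 10 dim ones lay below it by definition, because the filter of 5.27 is itself under 5.36. Hey1 was the tested member closest to the filter, with a mean of 5.52, while the second Nrarp probe set, at 5.26, and the brightest Heyl probe set, at 5.25, lay just under it. From the lowest to the highest of the 6 arrays, both groups together, dim member probe sets spanned 1.55 to 4.60 on the log2 scale and tested ones 0.603 to 1.67.

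**Figure D1:**
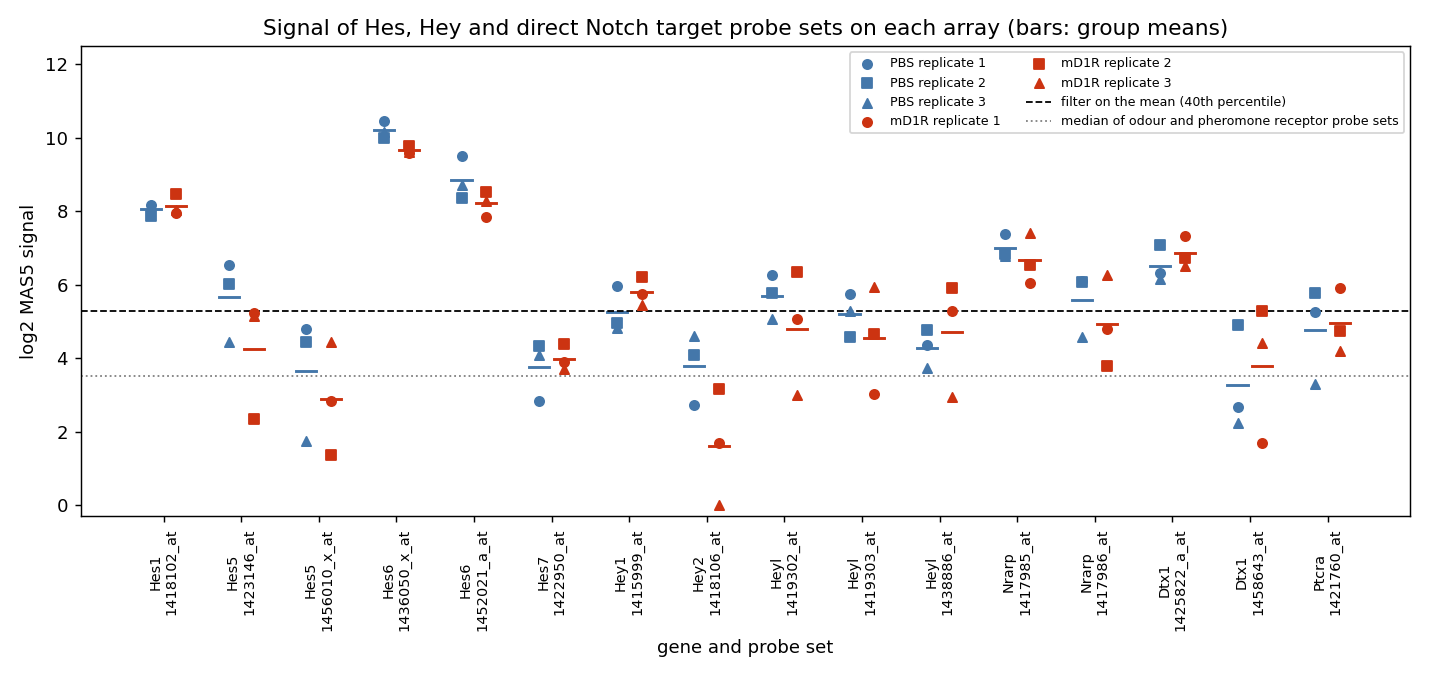
Log2 MAS5 signal (vertical axis) of each of the 16 member probe sets (horizontal axis) on the 3 PBS (blue) and 3 mD1R (red) arrays, with symbols for replicates, short bars for group means, the filter at 5.27 dashed and the receptor median of 3.50 dotted. Hes1, both Hes6 sets, the brighter Nrarp and the brighter Dtx1 set lie above the dashed line on every array, and Hey1 crosses it.

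The arrays themselves were alike in scale, with median log2 signals between 6.07 and 6.42, the highest in PBS replicate 1. Array mD1R replicate 3 correlated over tested probe sets at 0.909 and 0.931 with the other mD1R arrays and at 0.912 to 0.938 with the PBS arrays, so it lay no nearer its own group than the other. A hybridisation spike-in, BioB, relative to the other bacterial and phage spike-ins, separated the arrays into 2 sets that cross the groups (-3.25 to -3.16 and -5.73 to -5.65, log2), PBS replicate 1 with mD1R replicates 1 and 2, and PBS replicates 2 and 3 with mD1R replicate 3. Changes within these spike-in sets are given below beside the pooled ones, and each rests on a single array of 1 group. Of the gate genes, Kit had log2 signals of 9.97, 8.85 and 9.21 with PBS and 11.37, 11.13 and 9.58 with mD1R (limma adjusted p = 0.109). Ly6a, the Sca-1 gene, was not analysed here. Of the lineage genes, Cd4 was dim, Cd3e lay between 3.53 and 6.55, Cd8a between 4.54 and 6.48 and Itgam between 11.56 and 12.31. Ly6g was not analysed here, and Ptprc, listed with the gate genes, lay between 13.29 and 14.14.

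Hes1 encodes the Notch-induced repressor best studied in blood stem and progenitor cells. Its probe set (1418102_at) gave log2 signals of 8.16, 7.86 and 8.16 in PBS replicates 1, 2 and 3, and of 7.94, 8.47 and 8.04 in mD1R replicates 1, 2 and 3. The groups overlapped, and the highest and the second lowest values both came from mD1R arrays. The change was 0.09 ± 0.24 (log2, SE, n = 3 per group; limma adjusted p = 0.842), a ratio of 1.06 with a 95% interval of 0.725 to 1.56. It was 0.04 and 0.03 within the spike-in sets. Its sign turned when mD1R replicate 2 (-0.07) or PBS replicate 2 (-0.01) was left out.

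Hes6 encodes a relative of Hes1 that is known to counteract Hes1 activity, and which in nerve cell precursors is made without Notch signalling. It had the lowest adjusted p of the 10 genes. Its brighter probe set (1436050_x_at) read 10.46, 9.99 and 10.17 with PBS and 9.57, 9.78 and 9.62 with mD1R. This was the 1 member probe set of 16 whose groups did not overlap, where 36% of all tested and 12.7% of all dim probe sets had groups that did not overlap. The change was -0.55 ± 0.19 (limma adjusted p = 0.0996), a ratio of 0.683 with an interval of 0.502 to 0.928 that is not adjusted for the number of probe sets. The suffix _x_at marks, in the naming of the array's maker, a set in which some probes can also match other transcripts.

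The second Hes6 probe set (1452021_a_at) read 9.50, 8.37 and 8.72 with PBS and 7.83, 8.53 and 8.29 with mD1R. These groups overlapped, with PBS replicate 1 highest and mD1R replicate 1 lowest. The change was -0.65 ± 0.33 (limma adjusted p = 0.240), with a 95% interval of -1.42 to 0.13. Within the spike-in sets the brighter set changed by -0.78 and -0.47 and the other by -1.32 and -0.26. Both Hes6 probe sets were lower with mD1R in each of 16 other ways of processing. The changes ran from -0.66 to -0.41 for the brighter and from -0.89 to -0.31 for the other. Neither passed in any (limma adjusted p from 0.0665 to 0.513). Refits that altered only the filter, the variance model or the replicate block left the changes themselves as they were, so the sign could not turn there. Leaving out mD1R replicate 3 changed them little, to -0.53 and -0.68.

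Since Hes6 was the member with the lowest adjusted p, the 250 bases before each of its 2 annotated start sites are shown (RefSeq, build GRCm38.p6, minus strand, 5′ to 3′, chr1:91413223-91413472 and chr1:91414039-91414288). Capitals mark matches to the N box CACNAG or the class C box CACGNG, the letters that Hes and Hey repressors are known to bind. Window 1 has 1 N box, 237 bases before the start site, and window 2 has 1 class C box, 157 bases before it.
Hes6 window 1: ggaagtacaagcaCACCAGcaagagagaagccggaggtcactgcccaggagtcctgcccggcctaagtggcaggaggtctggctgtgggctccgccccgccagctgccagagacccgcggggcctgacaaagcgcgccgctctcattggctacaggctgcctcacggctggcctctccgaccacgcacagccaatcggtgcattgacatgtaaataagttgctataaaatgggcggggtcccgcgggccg
Hes6 window 2: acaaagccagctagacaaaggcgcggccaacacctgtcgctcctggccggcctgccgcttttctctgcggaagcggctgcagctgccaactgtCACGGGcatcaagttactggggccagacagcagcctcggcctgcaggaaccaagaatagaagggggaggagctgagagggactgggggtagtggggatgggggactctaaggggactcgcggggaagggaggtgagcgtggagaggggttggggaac

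These motifs were searched on both strands, and the letters CTCGTG count for both. Of 32851 promoter windows of that length, 36.7% hold an N box and 23.5% a class C box, so a match is common, and it is a description of the letters alone. The Rbpj core GTGGGAA, read on the other strand as TTCCCAC, is in neither Hes6 window.

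Hes5 encodes a second Notch-induced repressor, best known from neural stem cells, and was dim. Its brighter probe set (1423146_at) read 6.55, 6.02 and 4.43 with PBS and 5.23, 2.34 and 5.14 with mD1R. The groups overlapped, and mD1R replicate 2 lay far under all others. The change was -1.43 ± 0.92 in the fit without a filter (limma adjusted p = 0.435), and it was -2.76 and -0.09 within the spike-in sets. The other Hes5 probe set (1456010_x_at) was below its array's 40th percentile on all 6 arrays and changed by -0.78 ± 1.10 (adjusted p = 0.757 in the same limma fit). The interval of the brighter set reached from an 11.5-fold decrease to a 1.57-fold increase.

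Hes5 carries the Rbpj core in its promoter window on both strands, and is shown because it was the 1 member with 2 matches (RefSeq, GRCm38.p6, plus strand, chr4:154960673-154960922, 250 bases before the start site). The capitals mark TTCCCAC at 226 and GTGGGAA at 83 bases before the start site.
Hes5: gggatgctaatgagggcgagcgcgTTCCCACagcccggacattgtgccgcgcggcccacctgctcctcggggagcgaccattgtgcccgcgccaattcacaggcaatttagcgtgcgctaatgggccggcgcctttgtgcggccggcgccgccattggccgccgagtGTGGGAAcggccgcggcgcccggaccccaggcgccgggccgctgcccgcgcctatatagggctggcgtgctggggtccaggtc

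Of 7 members found in the promoter table, 3 had the Rbpj core, against 5.42% of all windows, and the other two were Hes7 and Hey2 (57 bases around each match, capitals as above; Hes7 plus strand at chr11:69120248-69120304, Hey2 minus strand at chr10:30842959-30843015). All 3 of these genes were dim on the arrays. The windows of Hes6, Nrarp, Dtx1 and Ptcra hold no such letters, and no windows of Hes1, Hey1 and Heyl were used here.
Hes7: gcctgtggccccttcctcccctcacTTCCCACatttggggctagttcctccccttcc
Hey2: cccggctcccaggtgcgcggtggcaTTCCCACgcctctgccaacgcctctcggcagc

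Hes7, a repressor of the clock that times body segment formation, was below the 40th percentile on all 6 arrays. Its values lay between 2.82 and 4.38, around the receptor median, and the change was 0.23 ± 0.71 (limma without a filter, adjusted p = 0.9001). Its sign differed between the spike-in sets, at 1.30 and -0.52.

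The Hey genes encode repressors of heart and blood vessel development. Hey1 (1415999_at) read 5.96, 4.95 and 4.81 with PBS and 5.73, 6.20 and 5.46 with mD1R. All mD1R arrays lay above PBS replicates 2 and 3 and on both sides of PBS replicate 1, so the groups overlapped. The PBS mean of 5.24 was under the filter and under the 95th percentile of the receptor probe sets (5.36). Hey1 was thus tested only through its mD1R signal, and the size of its change is uncertain. The change was 0.56 ± 0.46 (limma adjusted p = 0.455), with a 95% interval of -0.49 to 1.61, and within the spike-in sets it was 0.01 and 0.57. It was 0.92 without PBS replicate 1, with array weights 0.92 as well, and 0.31 on the scale log2(signal + 32), and it passed in none of the 15 alternatives that kept the gene.

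Hey2 (1418106_at) was dim on all arrays, at 2.71, 4.07 and 4.60 with PBS and 1.68, 3.17 and 0.00 with mD1R, where mD1R replicate 3 is listed at 0, the lowest value that was deposited. The groups overlapped, and the change of -2.18 ± 1.002 (limma without a filter, adjusted p = 0.260) rests in part on that value. Heyl had 3 dim probe sets. Their changes were -0.90 ± 0.84, -0.67 ± 0.80 and 0.43 ± 0.85, so the sets of 1 gene did not share a sign, and none passed (limma adjusted p from 0.612 to 0.837). Array mD1R replicate 3 was lowest of all 6 on the sets 1419302_at (2.99) and 1438886_at (2.93) and highest on the set 1419303_at (5.93).

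Since Hey genes are also active in vessel cells, endothelial genes are given beside them. Of 12, 7 were tested and 1 rose, or 14.3%, against 15.6% of all 12320 genes past the threshold in either direction. It was Pecam1, by 1.41 ± 0.31 (limma adjusted p = 0.0279), a gene that blood stem cells also make. The median log2 change of the 7 was 0.79. Without passing, Eng (1.40), Esam (1.05), Kdr (0.79), Flt1 (0.60) and Egfl7 (0.10) were higher, and Robo4 (-0.33) was lower. The summed linear signal of the list was 1558 to 1562 with PBS and 2515 to 3812 with mD1R. Cdh5, Tek, Emcn, Tie1 and Sox17 were dim, among them Cdh5 with -2.65 ± 0.67 (limma without a filter, adjusted p = 0.0532), the opposite sign to Pecam1, and the part of endothelial RNA in the Hey1 values was not tested.

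**Figure D2:**
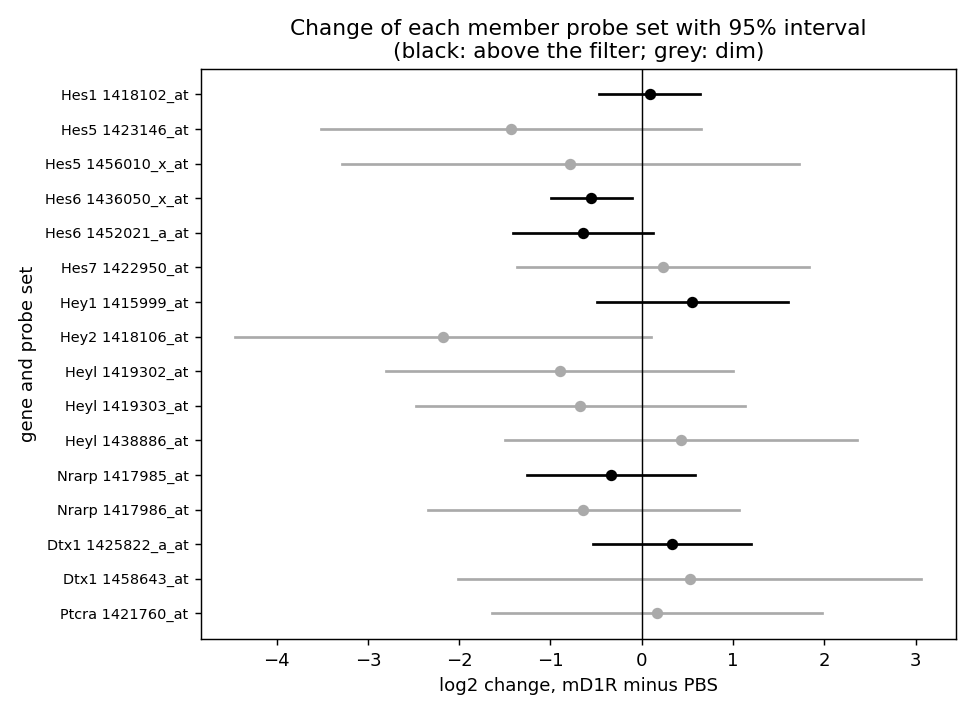
Log2 change, mD1R minus PBS (horizontal axis), of each member probe set (vertical axis), with limma's 95% interval, black where the probe set was tested and grey where it was dim and fitted without a filter. The interval of 1 Hes6 probe set (-0.99 to -0.11, not adjusted) excludes 0, and the Hes1 interval (-0.46 to 0.64) is among the narrowest.

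Nrarp encodes a small ankyrin repeat protein that is induced by Notch and damps its transcription complex. The tested probe set (1417985_at) read 7.37, 6.85 and 6.78 with PBS and 6.05, 6.54 and 7.40 with mD1R. Replicates 1 and 2 of mD1R were the lowest of the 6 arrays and replicate 3 of mD1R the highest, so the mD1R arrays spanned the PBS arrays. The change was -0.33 ± 0.40 (limma adjusted p = 0.619). It was -0.70 without mD1R replicate 3 (adjusted p = 0.212) and -0.03 without mD1R replicate 1.

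The dim Nrarp probe set (1417986_at) read 6.11, 6.07 and 4.57 with PBS and 4.79, 3.78 and 6.25 with mD1R, again with mD1R replicate 3 highest. Its change was -0.64 ± 0.75 (limma without a filter, adjusted p = 0.699). Within the spike-in sets, the changes were -1.07 and 0.58 for the tested set and -1.82 and 0.93 for the dim one, so neither kept its sign.

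Dtx1 encodes a ubiquitin ligase that binds the intracellular part of Notch. Its tested probe set (1425822_a_at) read 6.32, 7.09 and 6.15 with PBS and 7.32, 6.73 and 6.50 with mD1R. Each mD1R array lay above PBS replicates 1 and 3, and PBS replicate 2 lay among the mD1R arrays. The change was 0.33 ± 0.37 (limma adjusted p = 0.598, interval -0.53 to 1.20), with 0.71 and -0.12 within the spike-in sets, and it lay between 0.10 and 0.62 when single arrays were left out. The second Dtx1 probe set was below the 40th percentile on all 6 arrays, with values from 1.70 to 5.29 and a change of 0.52 ± 1.12.

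Ptcra encodes the invariant chain of the pre-T cell receptor and was dim. It read 5.25, 5.77 and 3.31 with PBS and 5.90, 4.73 and 4.20 with mD1R, and the groups overlapped throughout. The change was 0.17 ± 0.80 (limma without a filter, adjusted p = 0.938). Beside it, 3 of 10 tested early T cell genes fell (Cd3d, Cd3g and Cd2) and 1 rose (Lat). Over all 12320 genes tested, 7.09% fell and 8.49% rose. The summed linear signal of the early T cell list was 2043 to 3495 with PBS and 2354 to 3979 with mD1R. The sums overlapped, but the median log2 change of the 10 genes was -1.43, and Lat (1.53), Thy1 (1.04) and Zap70 (0.81) went the other way. Rag1, which cuts the antigen receptor genes, read 10.07, 8.24 and 8.23 with PBS and 0.00, 6.39 and 5.00 with mD1R, where 0 is the lowest deposited value (-5.05 ± 1.47, limma adjusted p = 0.0595). Its partner Rag2 was dim and fell by 4.60 ± 0.76 on the log2 scale in the fit without a filter (limma adjusted p = 0.0143), from 6.71, 5.54 and 5.75 to 2.40, 0.85 and 0.95. Cd3e (-1.41) and Cd247 (-1.44) did not pass.

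The 3 genes whose pattern over the 6 arrays was most like that of Hes1 were Cphx3, Rmdn1 and Isoc2b, with Pearson r of 0.981, 0.973 and 0.966. They were picked among 22581 probe sets, of which 12 had an r over 0.95. With 6 arrays and so many probe sets, this describes likeness and nothing more.

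**Figure D3:**
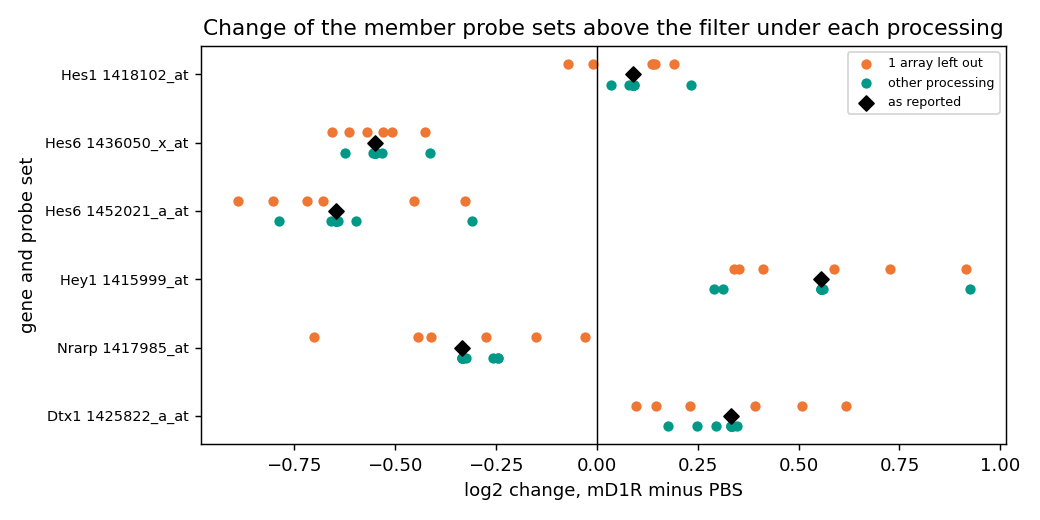
Log2 change, mD1R minus PBS (horizontal axis), of the 6 tested member probe sets (vertical axis) as reported (diamonds), with 1 array left out (orange) and with other processing (green). Hes1 lies around 0 and turns below 0 without PBS replicate 2 or mD1R replicate 2, while both Hes6 sets stay below 0 and Hey1 and Dtx1 stay above it.

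The pathway around these genes was also measured, in 10 lists with 82 genes, of which 66 were tested by their brightest probe set. In limma 10 rose and 4 fell at adjusted p 0.05, or 21.2% of the 66, against 15.6% of all 12320 genes tested (8.49% higher and 7.09% lower), with a median log2 change of 0.18 against 0.09. Both Hes-related genes that were tested were higher by sign. Bhlhe40, a stress and hypoxia responsive repressor of the same protein class, rose by 1.75 ± 0.21 (limma adjusted p = 0.00968), from 10.15, 10.65 and 10.44 with PBS to 12.29, 12.36 and 11.85 with mD1R, while the change of Bhlhe41 was 1.54 ± 0.53 (adjusted p = 0.0980). The count of 14 genes depended on single arrays, being 0 without PBS replicate 3, 6 without PBS replicate 2 and 5 without mD1R replicate 2.

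Among the Groucho/TLE co-repressors, the partners through which Hes and Hey proteins silence genes, 1 of 5 passed. Tle6, an atypical member of that family, rose by 2.66 ± 0.38 (limma adjusted p = 0.0113), from 5.52, 5.37 and 4.94 to 7.39, 8.56 and 7.86. Its PBS values lay around the 95th percentile of the receptor probe sets (5.36), so the size of that change is uncertain. Tle2 read 5.60, 5.09 and 3.12 with PBS and 6.59, 6.71 and 6.01 with mD1R. These groups did not overlap, which held for 36% of all tested probe sets. The Tle2 change of 1.83 ± 0.65 did not pass (limma adjusted p = 0.105). Its PBS mean of 4.60 was under the filter and under the same receptor percentile (5.36). Tle2 was thus tested only through its mD1R signal, and the size of its change is uncertain too. Tle1, Tle3 and Tle4 differed by 0.21, 0.20 and -0.18, each with an SE of 0.21 to 0.26.

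On the sending and receiving side, 0 of 4 receptor genes passed, with Notch2 having the smallest p (-0.21 ± 0.21, limma adjusted p = 0.532), and 1 of 4 tested ligand genes, Jag1, rose (2.13 ± 0.26). Of 7 tested genes for receptor cleavage, Adam17 (1.36 ± 0.24) and Psen2 (1.30 ± 0.25) rose. Of the other probe sets of Jag1, 1 rose (1.63, limma adjusted p = 0.0269) and 1 did not pass (0.39), nor did the other of Psen2 (0.15). Aph1b, a gamma-secretase subunit gene, fell by 1.47 ± 0.34 on the log2 scale (limma adjusted p = 0.0318), and a second Aph1b probe set gave -1.03 (adjusted p = 0.0556). Of 5 glycosyltransferase genes 1 rose, Poglut1, whose enzyme adds glucose to the Notch extracellular repeats, by 0.99 ± 0.18 (limma adjusted p = 0.0176). Of 10 genes, the Numb genes, the Deltex genes other than Dtx1, and Itch, Fbxw7, Mib1 and Neurl1a, Dtx3 alone rose (1.19 ± 0.20).

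Of 12 tested genes of the Rbpj complex and its co-repressors 0 passed in limma. The smallest p was that of the co-repressor gene Ctbp1 (-0.55 ± 0.16, adjusted p = 0.0599), and Rbpj itself differed by 0.999 ± 0.36 (adjusted p = 0.105). Of the 3 E protein genes 0 passed, with Tcf3 at -1.002 ± 0.32 (limma adjusted p = 0.0792).

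A further 18 genes are described as Notch targets in some cells, and 14 were tested. Of these 3 rose, the cell cycle inhibitor gene Cdkn1a (1.65 ± 0.34), the transcription factor gene Gata2 (2.22 ± 0.30) and the interleukin 7 receptor gene Il7r (2.24 ± 0.45). A second Il7r probe set gave 2.02 (limma adjusted p = 0.0559). Another 3 fell, Cd7 (-3.88 ± 0.44), Cd3g (-1.80 ± 0.34) and Id1 (-1.41 ± 0.36), an inhibitor of E proteins. The mD1R values of Cd7 were 3.48, 4.13 and 3.73, around the receptor median of 3.50, so its change is set against a level that cannot be told from empty signal. Lymphoid lists are given beside Cd7 and Cd3g, where 7.09% of all 12320 genes fell and 8.49% rose. Of 5 tested B cell genes 3 fell, Ebf1 (-2.92), Blk (-1.62) and Cd79b (-0.90), while Cd79a (-1.20) and Ms4a1 (0.21) did not pass. The summed linear signal of that list was 2030 to 3645 with PBS and 1054 to 2080 with mD1R. Of 9 plasmacytoid dendritic cell genes 2 fell, Siglech (-2.81) and Ccr9 (-2.90), and 2 rose, Bst2 (1.75) and Irf7 (1.49), with sums of 9150 to 12198 and 15990 to 22575. Bst2 and Irf7 were the brightest genes of the list with mD1R, and the median log2 change of the 9 was -0.23. Without passing, Pacsin1 (-1.83), Ly6d (-1.15) and Cox6a2 (-0.23) were lower, and Klk1 (0.48) and Tcf4 (0.02) higher. The part of lymphoid and plasmacytoid cells in the Cd7 and Cd3g values was not tested.

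Gata2 is also on the mast cell list, of which 7 of 9 tested genes rose, Gata2 itself among them, against 8.49% of all 12320 genes. Of the 9, Mcpt4 and Tpsb2 had PBS means of 3.39 and 4.28, under the filter, and were tested only through their mD1R signal. Replicate 3 was the lowest mD1R array for Mcpt1 (7.53), Mcpt2 (8.12) and Mcpt4 (6.04). It was the highest for Cpa3, Fcer1a, Ms4a2 and Gata2. The 2 genes of the list that did not pass were Tpsb2 (2.49 ± 1.02) and Hdc (-1.34 ± 0.55), with limma adjusted p of 0.148 and 0.150. The summed linear signal of the list, Gata2 included, was 10677 to 13026 with PBS and 37771 to 62120 with mD1R. The part of those cells in the Gata2 value was not tested.

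**Figure D4:**
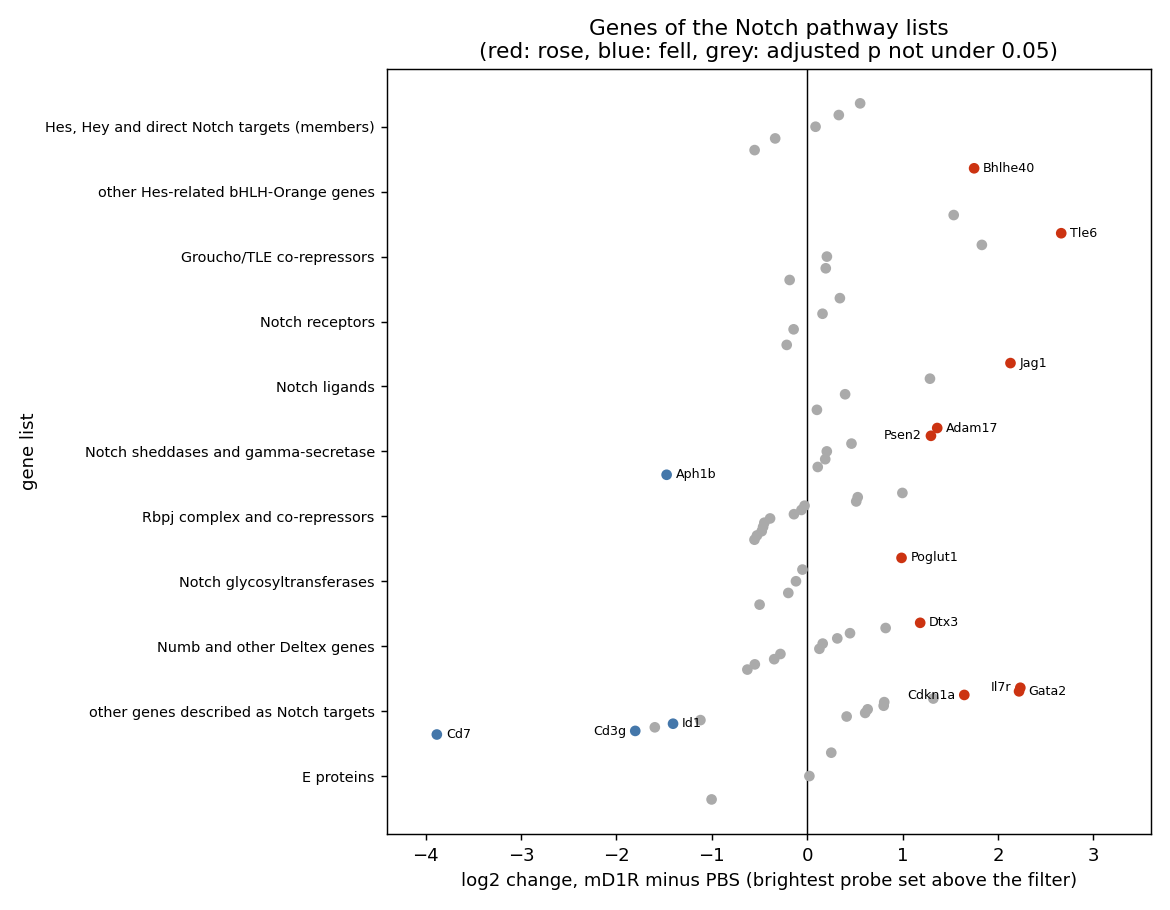
Log2 change, mD1R minus PBS (horizontal axis), of each tested gene of the member list and the 10 other Notch pathway lists (vertical axis), each point a gene's brightest tested probe set, red where it rose and blue where it fell at adjusted p 0.05. The 5 tested member genes, in the top line, lie between -0.55 and 0.56, and Bhlhe40, Tle6, Jag1 and Cd7 lie far outside that span.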

How the data were processed

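The authors deposited log2 signals for 45101 probe sets on 6 arrays, and the submitters' processing notes name MAS5 without a version. On the linear scale the 2% trimmed means of the arrays lay between 500.003 and 500.004, so arrays had been scaled one by one, and values under 1 were listed as log2 0. MAS5 subtracts mismatch signals, which makes dim values noisy. The 64 control probe sets were left out. Probe sets were named by the platform annotation, and 0 member probe sets had several symbols. All 10 member symbols matched RefSeq.

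For mD1R against PBS, limma 3.58.1 was run in R 4.3.3 with lmFit and with eBayes using a variance trend. The two-sided test used the deposited log2 values, without further scaling, over the 27022 probe sets whose mean signal was at or above the 40th percentile. Benjamini-Hochberg adjustment was applied, with a threshold of 0.05. Dim probe sets were fitted without a filter, over 45037 probe sets. Genes outside the members were represented by their brightest tested probe set. Errors are limma's standard errors, and the number of arrays limits the precision. P-values measure the spread between these samples, whose animals or cultures are not detailed.

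Tested on simulated data for this comparison with 27022 probe sets, of which 200 were changed, the fit recovered 3.2% of changes of 1 and 38.8% of changes of 2 (log2), and 4.75% of its calls were false. Far more probe sets were called in the real data, so these shares may not carry over.

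Genes named outside the members were all called members of the pathway lists, otherwise the 1 with the smallest p per list, the gate genes and the 3 genes most like Hes1. Others (Bhlhe41, Tle1, Tle3, Tle4, Rbpj, Tle2, the marker genes) were chosen after their values were seen. The members and lists were chosen with earlier results of these data known. Alternatives changed the scaling, pseudocount, filter, variance model, array weights, blocks and the arrays included.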

Additional observations from a re-analysis of the deposited data

How the results depend on the processing

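The count of 0 member probe sets past adjusted p 0.05 was found in limma under all 16 refits, and 1 had an unadjusted p under 0.05 in the fit as reported. The direction of the Hes6, Hey1, Nrarp and Dtx1 changes held in each refit that kept them. In refits of the filter, variance model or replicate block alone no sign could turn, because the change itself stays the same. Hes1 changed sign without PBS replicate 2 (-0.01) and without mD1R replicate 2 (-0.071), and lay between -0.071 and 0.19 over all left-out arrays. The median member change lay between -0.21 and 0.03 when single arrays were left out, was -0.44 over all 16 member probe sets with no filter, and was -0.55 when a 60th percentile filter left 3. Over all probe sets, the count past the threshold was 3413 as reported, 2213 with no variance trend, 6508 with array weights and 8048 at unadjusted p 0.05. It lay between 0 and 5554 with 1 array left out, at 1301, 535 and 0 without PBS replicates 1, 2 and 3 and at 2173, 687 and 5554 without mD1R replicates 1, 2 and 3. The pathway count of 14 genes, whose refits were chosen after seeing the data, was 24 with array weights and between 0 and 18 with 1 array left out. The numbers of the replicates pair no samples in the labels, and deviations of same-numbered arrays correlated at 0.31, 0.03 and 0.13, with PBS replicate 2 closer to mD1R replicate 3 (0.15). With the replicate block, 4619 of all probe sets, 0 member probe sets and 19 pathway genes passed. No member probe set had several symbols, so the alternative that adds such probe sets could not be run. Signal over background limits the dim members, whose standard errors were 0.706 to 1.12 (log2).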

Other observations

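Hes3, a further relative of Hes1 that is best known from the developing nervous system, was dim by the filter and stood outside the 10 genes. It was chosen after its values were seen. Its probe set read 5.53, 5.38 and 5.88 with PBS and 1.10, 2.27 and 3.14 with mD1R, so the groups did not overlap. In the limma fit without a filter its change was -3.43 ± 0.74 (adjusted p = 0.0321), where 6.39% of 45037 probe sets passed. Its PBS values lay near the 95th percentile of the odour and pheromone receptor probe sets (5.36) and its mD1R values under their median (3.50). Hes2, another dim relative, differed by 1.62 ± 0.82 (adjusted p = 0.308 in the same limma fit).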
